A study of Homo sapiens with 6 samples.

Results

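The YTH domain and IGF2BP genes encode proteins that bind N6-methyladenosine (m6A), the common internal methylation of mRNA. The 8 reader genes described here were taken by name: YTHDF1, YTHDF2, YTHDF3, YTHDC1, YTHDC2, IGF2BP1, IGF2BP2 and IGF2BP3. Of these 8, 7 are among the 13885 genes of the authors' deposited table, and IGF2BP2 has no row there, so no value is given for it. The table compares BE(2)-C cells, a human neuroblastoma line of wild-type genotype, in 2 groups of 3 samples. The siPcif1 cells were transfected with siRNA that targets PCIF1, and the siScram cells with scrambled siRNA, in each case for 24 h. Both groups were afterwards kept for 4 days in all-trans retinoic acid (ATRA) at 10 µM, which drives these cells towards a neuronal form, so no group without ATRA enters the comparison. A knockdown by siRNA leaves part of the target and may act on other transcripts.

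PCIF1 writes a related mark, m6Am, on the first transcribed adenosine next to the mRNA cap. The m6A inside mRNA is written by the METTL3 and METTL14 complex and removed by FTO and ALKBH5. Readers carry its effects: YTHDF proteins act in the cytoplasm on translation and decay, YTHDC1 acts in the nucleus on splicing and export, and YTHDC2 is an RNA helicase. IGF2BP proteins bind RNA through KH domains and are known for keeping their target mRNAs stable, and IGF2BP1 and IGF2BP3 are mostly fetal genes that many tumours express again.

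Most of the measured readers were higher in siPcif1 cells. By the authors' deposited table, 5 of the 7 rose at a DESeq2 adjusted p under 0.05 and 0 fell, and the same 5 and 0 had an unadjusted p under 0.05, as had 5998 of all 13885 genes in either direction. The members that rose were YTHDF3, YTHDC1, YTHDC2, IGF2BP1 and IGF2BP3, and the log2 fold changes of all 7 in the authors' deposited table ran from 0.09 to 0.72 with a median of 0.38. Of all 13885 genes in the authors' deposited table, 16.3% rose, 17.7% fell and 34.0% passed in either direction, with a median log2 fold change of 0.01. A call by itself is therefore common in this comparison. The readers had low to middling GC content, and GC-poor genes as a whole were higher in siPcif1 cells. Once the trend with GC content, transcript length and level was subtracted, 2 of the 5 still passed, YTHDF3 and YTHDC1, beside 12.2% of all genes passing as higher.

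PCIF1, the siRNA target, had a log2 fold change of -0.82 (SE 0.19) by the authors' deposited table (DESeq2 adjusted p 0.000167). The header does not say which group is on top of the ratio, and the name of the table gives siScram first. The direction was set as siPcif1 over siScram from PCIF1 itself, so its sign is no check of the labels, and under the other reading every rise below would be a fall. The labels do not say that the 3 samples of a group were separate cultures, and p-values then measure only the spread between these samples, which may be technical. Values of single libraries were not analysed here, and their depth is unknown. Of 12 markers of adrenergic neuroblastoma cells, such as TH and DBH, 12 had a row in the authors' deposited table, with means of 43.3 to 8104 normalised counts. Of 16 markers of blood, epithelial, endothelial, liver, stromal and glial cells, 6 had a row, with means of 13.9 to 718, and PTPRC, PECAM1, ALB and 7 more had none. S100B and CD14 rose and PDGFRB fell, by DESeq2, according to the authors' deposited table. Their part in the readers' values was not tested.

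The stretch around the annotated start of transcription is shown for the readers because PCIF1 acts on the first transcribed base when it is an adenosine. The 30-base windows are from RefSeq on GRCh38.p14, 20 bases before the annotated start and 10 from it, 5′ to 3′ on the gene's own strand, with the first transcribed base in capitals. They cover 5 of the 7 measured readers; those of YTHDF3 and IGF2BP1 are not shown. YTHDF2 has 2 annotated starts.
YTHDC1 (chr4:68350081-68350110, minus strand): aagcgtaaacagcgcagggcAtttcgggag
YTHDC2 (chr5:113513674-113513703, plus strand): ggtgacgtcattacgcccgcGctcctcgcc
IGF2BP3 (chr7:23470482-23470511, minus strand): aggcggcgcctgcctcacgtAgtgtgatat
YTHDF1 (chr20:63216122-63216151, minus strand): ccgccgccgtcgccgctgctGtcgccgccg
YTHDF2, upstream start (chr1:28736604-28736633, plus strand): cttctgaagccagagctagtCtttccaggt
YTHDF2, downstream start (chr1:28736920-28736949, plus strand): gggcattgagctcttgggctAgagcgtcgc

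An adenosine stands at the annotated start of YTHDC1, IGF2BP3 and the downstream start of YTHDF2, a guanosine at those of YTHDC2 and YTHDF1, and a cytidine at the upstream start of YTHDF2. Among all 35116 RefSeq starts 44.4% have A and 33.6% have G. These letters depend on the annotation. In GENCODE 29 the main transcripts of YTHDC2, YTHDF3 and IGF2BP1 begin with A, and those of IGF2BP3 and YTHDF2 with G. That of YTHDC1 begins with T and that of YTHDF1 with C. Over all annotated genes of the comparison, 29.9% of main transcripts begin with A. Genes that rose therefore have both A and other bases at their annotated starts, and the starts used in these cells were not measured here.

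A pair of longer words was seen in the 300-base windows, from 250 bases before to 50 after the start, and was picked after the sequences were read. Both words read the same on either strand. CACGTG, the core E-box that MYC family proteins bind, is in 7.26% of all windows, and TGACGTCA, the cyclic AMP response element, in 1.85%. They are shown in capitals with up to 11 bases on each side.
IGF2BP3, 174 bases before the start (chr7:23470649-23470676, minus strand): ctgggattcctCACGTGagacgttgatt
IGF2BP3, 146 bases before the start (chr7:23470621-23470648, minus strand): tgtagtttgaaCACGTGgctcattcaaa
YTHDF1, 211 bases before the start (chr20:63216326-63216353, minus strand): cggacacgcccCACGTGacttccccggc
YTHDC1, 97 bases before the start (chr4:68350169-68350198, minus strand): gggcgacgcgcTGACGTCAcgtcacgttcc
YTHDC2, 18 bases before the start (chr5:113513665-113513694, plus strand): gccggccctggTGACGTCAttacgcccgcg

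CACGTG was found in IGF2BP3, which rose, and in YTHDF1, which did not pass. The windows of YTHDC1 and YTHDC2, both of which rose, hold TGACGTCA. The windows of YTHDF2 hold neither word. A match is a match of letters only, and binding there was not measured.

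**Figure D1:**
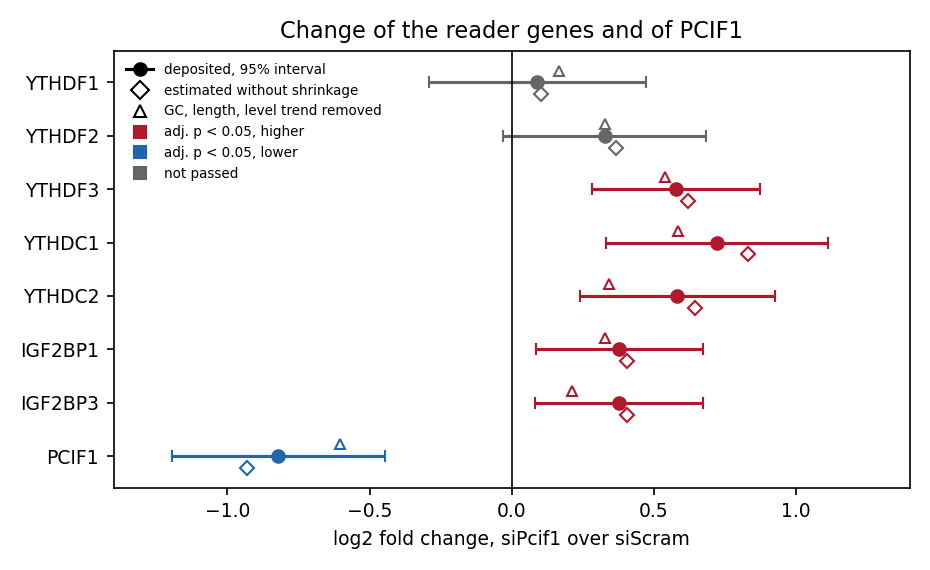
Log2 fold change of each measured reader and of PCIF1, siPcif1 over siScram (x axis), with filled points and 95% intervals for the authors' deposited table, open diamonds for the estimate without shrinkage and open triangles for the value after subtraction of the fitted trend in GC content, length and level. Colours show the call in the authors' deposited table; the intervals of YTHDF1 and YTHDF2 reach below 0 and those of the other 5 readers lie above it.

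Of the cytoplasmic YTHDF readers, YTHDF3 rose, while YTHDF1 and YTHDF2 did not pass. YTHDF3, which is known to work with the other YTHDF proteins in translation and decay, had an estimated mean of 625 normalised counts in siPcif1 cells, against 419 in siScram cells. These group means were computed from the mean and the fold change of the authors' deposited table, in the absence of values per library. Its log2 fold change, from the authors' deposited table, was 0.58 (SE 0.15, 95% interval 0.28 to 0.87), a 1.49-fold rise with a DESeq2 adjusted p of 0.000893. This was the smallest adjusted p of the 7 readers. YTHDF3 (ENSG00000185728.16) spans 63168553 to 63212786 on the plus strand of chromosome 8 in GRCh38, with 6 exons in its main transcript.

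YTHDF2, which recruits the CCR4-NOT deadenylase to methylated mRNA, had an estimated mean of 532 normalised counts in siPcif1 cells and 424 in siScram cells. The authors' deposited table placed it at 0.33 (SE 0.18, interval -0.03 to 0.68), with a DESeq2 adjusted p of 0.156. YTHDF1, known for promoting translation, had estimated means of 497 in siPcif1 cells and 466 in siScram cells. In the authors' deposited table it was at 0.09 (SE 0.20, interval -0.29 to 0.47), with a DESeq2 adjusted p of 0.759. The interval of YTHDF1 still allows a rise of 1.39-fold or a fall to 0.817 of the siScram level. YTHDF1 (ENSG00000149658.17) spans 63195429 to 63216234 on the minus strand of chromosome 20, and YTHDF2 (ENSG00000198492.15) spans 28736621 to 28769775 on the plus strand of chromosome 1. Both have 5 exons in the main transcript, and GENCODE 29 lists a pseudogene of each, YTHDF1P1 and YTHDF2P1. Neither pseudogene has a row in the table, and how shared reads were assigned to them was not analysed here.

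Both YTHDC genes rose. YTHDC1, the nuclear reader that acts on splicing and export, had an estimated mean of 157 normalised counts in siPcif1 cells, against 95.4 in siScram cells. Its log2 fold change, from the authors' deposited table, was 0.72 (SE 0.20, interval 0.33 to 1.11), or 1.65-fold, with a DESeq2 adjusted p of 0.00187. This was the highest fold change of the 7 readers, and it was higher than that of 93.4% of all genes in the authors' deposited table. YTHDC1 (ENSG00000083896.12) spans 68310387 to 68350089 on the minus strand of chromosome 4, with 16 exons.

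YTHDC2, the helicase that is needed for meiosis in mice, had an estimated mean of 372 normalised counts in siPcif1 cells, against 248 in siScram cells. The authors' deposited table gave it 0.58 (SE 0.17, interval 0.24 to 0.92), with a DESeq2 adjusted p of 0.00445. YTHDC2 (ENSG00000047188.15) spans 113513683 to 113595285 on the plus strand of chromosome 5, with 30 exons. Among its known partners XRN1, the cytoplasmic exonuclease, was at 0.64 (SE 0.18) by the authors' deposited table (DESeq2 adjusted p 0.00235). After subtraction of the fitted trend XRN1 was at 0.29 and did not pass, with an adjusted p of 0.239 from the DESeq2 statistics. MEIOC and RBM46, germ cell partners of YTHDC2, have no row in the table.

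The IGF2BP genes that were measured rose by nearly the same amount, and less far past the threshold. IGF2BP1 had an estimated mean of 620.2 normalised counts in siPcif1 cells, against 477 in siScram cells. IGF2BP3 had estimated means of 726 in siPcif1 cells and 559 in siScram cells. The authors' deposited table placed IGF2BP1 at 0.38 (SE 0.15, interval 0.08 to 0.67) with a DESeq2 adjusted p of 0.0375, a 1.30-fold rise. IGF2BP3 was also at 0.38 (SE 0.15, interval 0.08 to 0.67) by the authors' deposited table (DESeq2 adjusted p 0.0398). Both stand just inside the threshold of 0.05.

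IGF2BP1 (ENSG00000159217.9) spans 48997412 to 49055650 on the plus strand of chromosome 17, and IGF2BP3 (ENSG00000136231.13) spans 23310209 to 23470467 on the minus strand of chromosome 7; each has 15 exons. IGF2BP3 overlaps MALSU1, a gene on the opposite strand, over 1521 bases, and IGF2BP1 overlaps the antisense gene AC091133.3 over 8995 bases. The libraries are stranded, but whether reads were counted by strand is unknown from the sources used here. MALSU1 was at -0.08 (SE 0.19) by the authors' deposited table (DESeq2 adjusted p 0.786), and AC091133.3 has no row.

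Differences between the readers were mostly within their errors. Among the 21 pairs of measured readers, the 95% interval of the difference in log2 fold change excluded 0 in 2, neither adjusted over the pairs. YTHDC1 exceeded YTHDF1 by 0.63 (interval 0.09 to 1.18) and YTHDF3 exceeded YTHDF1 by 0.49 (interval 0.00377 to 0.97) in the authors' deposited table. After subtraction of the fitted trend in GC content, length and level, 0 of the 21 intervals excluded 0. YTHDF3 and YTHDF2 differed by 0.25 in the authors' deposited table, with an interval from -0.21 to 0.71, so a rise of YTHDF3 beside no call for YTHDF2 does not show that these paralogues differ. IGF2BP1 and IGF2BP3 differed by 0.00114, with an interval from -0.42 to 0.42. The intervals treat the errors of 2 genes as independent, although both were measured in the same libraries.

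**Figure D2:**
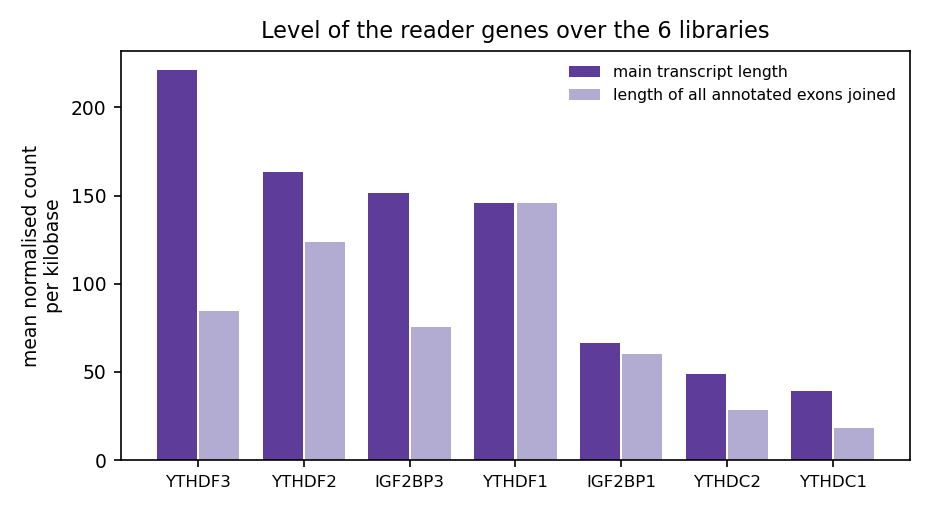
Mean normalised count per kilobase over the 6 libraries (y axis) for each measured reader, divided by the length of the main transcript (dark bars) or of all annotated exons joined (light bars). YTHDC1 and YTHDC2 are lowest by both lengths, while YTHDF3 is highest by the main transcript only.

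Per kilobase of the main transcript, the level was highest for YTHDF3, at 221 normalised counts from the means of the authors' deposited table, followed by YTHDF2 at 163, IGF2BP3 at 151 and YTHDF1 at 146. IGF2BP1 stood at 66.3, YTHDC2 at 49.1 and YTHDC1 at 39.0 per kilobase. Divided by the length of all annotated exons joined, YTHDF1 led with 146, then YTHDF2 with 124, YTHDF3 with 84.7, IGF2BP3 with 75.5, IGF2BP1 with 60.3, YTHDC2 with 28.7 and YTHDC1 with 18.0. The order among YTHDF1, YTHDF2, YTHDF3 and IGF2BP3 therefore depends on the length taken, whereas YTHDC1 and YTHDC2 were lowest by both. The spread of these levels over libraries was not analysed here. YTHDC1 had a mean of 126 normalised counts before division by length, above that of 41.8% of all genes in the authors' deposited table, and IGF2BP3, with 643, stood above 83.3%.

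**Figure D3:**
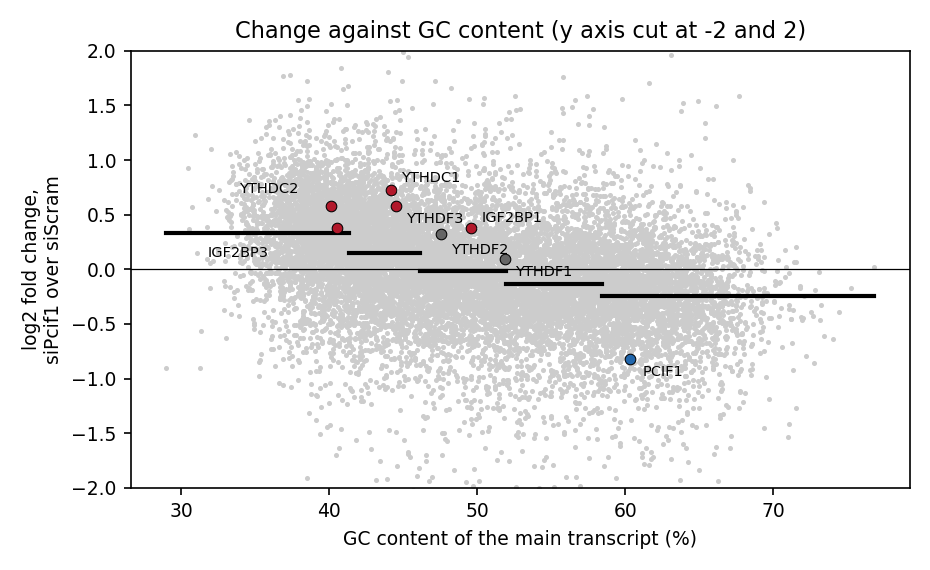
Log2 fold change, siPcif1 over siScram, against the GC content of the main transcript for all genes (grey points), with the median of each of 5 equal bins of genes by GC content (black bars). The readers (red where they rose, grey with a black rim where they did not pass) lie in the 3 bins of lower GC content, whose medians are 0.33, 0.15 and -0.02, and PCIF1 (blue) lies in the last.

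The readers lie in ranges of GC content in which different shares of all genes rose. Across 13877 genes with an annotation, Spearman's correlation of GC content with log2 fold change was -0.42 in the authors' deposited table, a description across genes that share the same 6 libraries. YTHDC2 and IGF2BP3 have the lowest GC content of the readers, 40.1% and 40.5%. They fall in the lowest of 5 equal bins of genes by GC content, of which 35.6% rose and 5.66% fell. YTHDC1 and YTHDF3, at 44.2% and 44.5%, fall in the next bin, of which 22.8% rose and 10.1% fell. YTHDF2, IGF2BP1 and YTHDF1, at 47.5%, 49.6% and 51.9%, fall in the middle bin, of which 12.3% rose and 17.4% fell. No measured reader lies in the upper bins.

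A linear fit of the log2 fold change on GC content, transcript length and level gave a fitted value for each gene. It was 0.24 for YTHDC2, 0.16 for IGF2BP3, 0.14 for YTHDC1, 0.05 for IGF2BP1, 0.04 for YTHDF3, -0.00047 for YTHDF2 and -0.08 for YTHDF1. With it subtracted from the authors' deposited table, YTHDC1 was at 0.59 and YTHDF3 at 0.54, with adjusted p-values from the DESeq2 statistics of 0.0182 and 0.00279. YTHDC2 was then at 0.34, IGF2BP1 at 0.33 and IGF2BP3 at 0.21, with adjusted p-values from the DESeq2 statistics of 0.144, 0.0946 and 0.322. In the same fit 12.2% of all genes passed as higher. With the genomic span of the gene in place of the transcript length, a choice made after seeing the data, IGF2BP1 passed as well at an adjusted p of 0.0342 from the DESeq2 statistics, beside 13.0% of all genes. The 7 readers were above 0 in both fits; whether the trend is technical was not tested.

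The number of readers that passed moved with the call rule. At a DESeq2 adjusted p under 0.01, 3 passed, YTHDF3, YTHDC1 and YTHDC2, beside 10.7% of all genes passing as higher, and with the Benjamini-Yekutieli adjustment the same 3 passed beside 9.10%. The count was 5 at an adjusted p under 0.1 (20.1% of all genes higher), when genes with means under 100 were dropped (19.5%) and with fold changes centred on their median (15.9%). Tested against an absolute log2 change of 0.3, 0 readers passed, beside 4.77% of all genes passing as higher. That test used the fold changes and SEs estimated without shrinkage, not the deposited ones. The Wald statistics of the table were wider than a standard normal: their robust SD was 2.44, and true changes add to it. Scaled to that SD, 0 readers and 0.151% of all genes passed as higher. PCIF1, the siRNA target, did not pass either, with an adjusted p of 0.744 from the rescaled Wald statistics.

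The readers share few features of gene structure. Of the 7, 6 span more than the median of 28.97 kb over all genes, from 33.2 kb for YTHDF2 to 160.3 kb for IGF2BP3, and YTHDF1 spans 20.8 kb. The 3′ UTR of the main transcript ran from 399 bases in YTHDF3 to 6206 bases in IGF2BP1. GGACT, the letters most often found at m6A sites, searched on the transcript strand only, was present in the main transcript of all 7 and of 87.6% of all annotated genes. Its number per kilobase ran from 0.303 in YTHDF1 and 0.308 in YTHDC1 to 1.03 in YTHDF2 and 1.09 in IGF2BP1, against a median of 0.921 over all genes. IGF2BP1 carries 7 of its 9 copies in the 3′ UTR. TCAAGT, a word taken up because earlier results of these data concerned it, was present in 5 of the 7 and in 53.6% of 13877 genes, on the transcript strand. It was in the main transcripts of YTHDF2, YTHDC1, YTHDC2, IGF2BP1 and IGF2BP3 and in those of neither YTHDF1 nor YTHDF3. Only main transcripts were searched. That of YTHDF3, which rose, has 2363 bases, against 6163 for all its annotated exons joined. Whether the word goes with a rise was not tested.

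**Figure D4:**
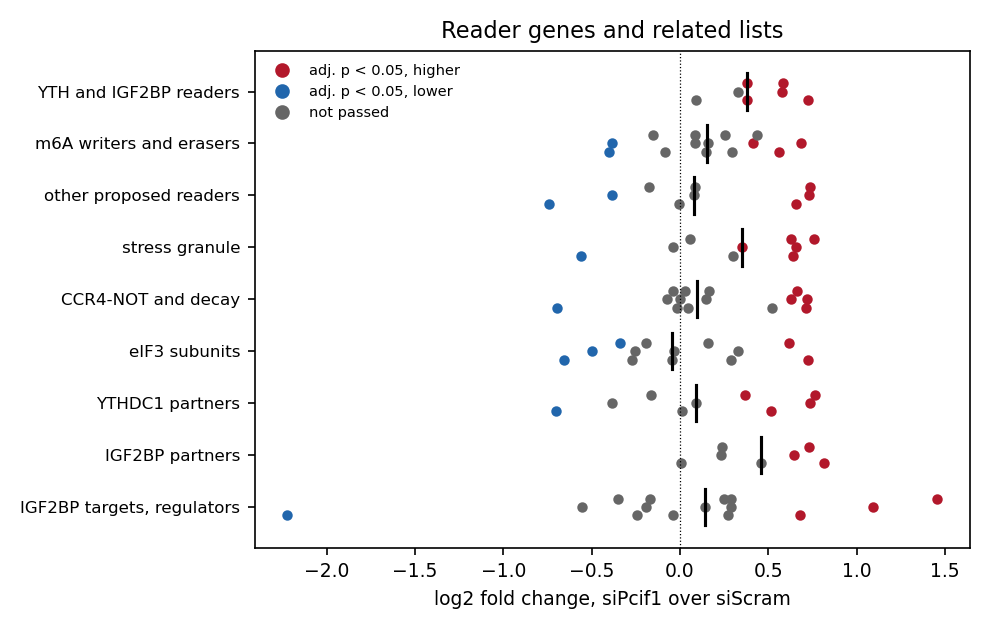
Log2 fold change, siPcif1 over siScram, of each measured gene (points; red rose, blue fell, grey did not pass) in the reader genes and in lists of related genes, with the median of each list as a black bar. The readers have no blue point and a median of 0.38, while each of the other lists drawn, except the IGF2BP partners, has genes that rose and genes that fell.

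The writers and erasers of m6A changed in both directions. Of 14 measured, 3 rose and 2 fell (DESeq2, from the authors' deposited table), with a median of 0.15. Of all genes, 16.3% rose and 17.7% fell. The counts of this list and of the lists below stand beside those shares and were not tested against them. ZC3H13, VIRMA and RBM15, adaptors of the methyltransferase complex, were at 0.68 (SE 0.17), 0.56 (SE 0.15) and 0.41 (SE 0.14), and ALKBH5, the demethylase, at -0.39 (SE 0.15) by the authors' deposited table. TRMT112, the partner of METTL5 and the writer or eraser gene with the highest mean, was at -0.40 (SE 0.17) by the authors' deposited table. The catalytic METTL3 was at 0.09 (SE 0.14) in the table of the authors and did not pass.

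Other proteins proposed to read m6A were mixed. Of 9 measured, 3 rose and 2 fell (DESeq2, from the authors' deposited table), with a median of 0.08. FMR1, HNRNPA2B1 and FXR1 rose, at 0.73 (SE 0.18), 0.73 (SE 0.19) and 0.65 (SE 0.18), and SND1 and FXR2 fell, at -0.74 (SE 0.13) and -0.38 (SE 0.15) by the authors' deposited table. HNRNPC, the most abundant of them before division by length, was at -0.17 (SE 0.13) by the authors' deposited table, short of the threshold.

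YTHDF proteins act through deadenylation, translation initiation and stress granules. Of 14 genes of CCR4-NOT and related decay, 4 rose and 1 fell (DESeq2, from the authors' deposited table), with a median of 0.10. The helicase DDX6 was at 0.71 (SE 0.14), the deadenylases CNOT6 and CNOT6L at 0.66 (SE 0.16) and 0.72 (SE 0.19), and POP1, a subunit of RNase P and RNase MRP, at 0.63 (SE 0.15) by the authors' deposited table. CNOT3 was the gene that fell, at -0.69 (SE 0.20), and CNOT1, the scaffold that YTHDF2 contacts, was at 0.16 (SE 0.13) by the authors' deposited table, short of the threshold. Of 13 subunits of the initiation factor eIF3, 2 rose and 3 fell (DESeq2, from the authors' deposited table), with a median of -0.05. EIF3A was at 0.73 (SE 0.15) and EIF3J at 0.62 (SE 0.17) by the authors' deposited table. EIF3G was at -0.66 (SE 0.16), EIF3F at -0.50 (SE 0.15) and EIF3D at -0.34 (SE 0.14) by the authors' deposited table.

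Of 9 stress granule genes, 5 rose and 1 fell (DESeq2, from the authors' deposited table), with a median of 0.35. CAPRIN1, G3BP1, G3BP2 and TIA1 were at 0.64 (SE 0.13), 0.63 (SE 0.13), 0.76 (SE 0.18) and 0.66 (SE 0.17) by the authors' deposited table. ATXN2L fell, at -0.56 (SE 0.16) by the authors' deposited table.

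Partners of the nuclear reader YTHDC1 also went both ways. Of 9 measured, 4 rose and 1 fell (DESeq2, from the authors' deposited table), with a median of 0.09. The splicing factors SRSF7 and SRSF10 were at 0.74 (SE 0.14) and 0.77 (SE 0.16), and CPSF6, a subunit of the 3′ end factor CFIm, at 0.51 (SE 0.14) by the authors' deposited table. EMD, which encodes emerin of the inner nuclear membrane, fell, at -0.70 (SE 0.15) by the authors' deposited table. SRSF3, the splicing factor and export adaptor with the highest mean of these genes, was at 0.09 (SE 0.14) by the authors' deposited table, short of the threshold.

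Partners of the IGF2BP proteins had 3 of 7 identifiers up and 0 down (DESeq2, from the authors' deposited table), with a median of 0.46. DHX9, SYNCRIP and HNRNPU, which form a complex with IGF2BP1 on target mRNA, were at 0.81 (SE 0.13), 0.73 (SE 0.16) and 0.65 (SE 0.17) by the authors' deposited table. YBX1, the most abundant partner, was at 0.23 (SE 0.12) by the authors' deposited table (DESeq2 adjusted p 0.12). MATR3 has 2 identifiers, and its reads may be split between them. The median of the list is the value of 1 of them, which had a mean of only 8.27 normalised counts (SE 0.29). The other was at 0.24 (SE 0.22) by the authors' deposited table, with a mean of 82.3.

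Genes known as targets or regulators of IGF2BP proteins held the largest rise and the largest fall of the related lists. Of 15 measured, 3 rose and 1 fell (DESeq2, from the authors' deposited table), with a median of 0.14. MYC, a known IGF2BP target, fell by 2.22 (SE 0.19), and its neuronal relative MYCN, amplified in this line, rose by 1.09 (SE 0.16) on the log2 scale by the authors' deposited table. LIN28B, which blocks maturation of let-7 microRNAs, was at 1.46 (SE 0.17) and BTRC, a ubiquitin ligase subunit, at 0.68 (SE 0.15) by the authors' deposited table. IGF2 was at -0.17 (SE 0.21) and ACTB, the classic zipcode target and the most abundant gene of the list, at -0.04 (SE 0.15) by the authors' deposited table, and neither passed.

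After subtraction of the fitted trend, calls were fewer in the related lists other than the IGF2BP partners and targets, and fewer over all genes. Of 13885 genes, 2263 rose and 2453 fell before the subtraction. After it, 1689 passed as higher and 1776 as lower, of 13877 genes. The count higher and the count lower were then 2 and 0 for the writers and erasers, 1 and 1 for the other proposed readers, 3 and 1 for CCR4-NOT and decay, and 3 and 1 for eIF3. They were 4 and 0 for the stress granule genes, 3 and 1 for the YTHDC1 partners, 4 and 0 for the IGF2BP partners, and 5 and 2 for the IGF2BP targets and regulators. Of the genes named above as called, VIRMA, ALKBH5, TRMT112, FMR1, FXR1, FXR2, CNOT6L, TIA1, ATXN2L and CPSF6 no longer passed. Nor did EIF3G, EIF3F and EIF3D, the eIF3 subunits that fell, whose adjusted p-values from the DESeq2 statistics became 0.254, 0.298 and 0.536. The genes that passed only after the subtraction were EIF3B, YBX1, SRF and E2F1 as higher and EIF3M and CD44 as lower. METTL3, FXR2, CNOT3, ATXN2L, IGF2, EIF3B, EIF3M, SRF, E2F1 and CD44 were named after their values were seen. HNRNPC and HNRNPU have annotated pseudogenes, so their counts are less certain. Pseudogenes of the other genes in these lists are not given here, and the same limit may hold for them.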

How the data were processed

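RNA was measured by RNA-seq in 6 samples of BE(2)-C cells, 3 siPcif1 and 3 siScram; per the labels' protocols, libraries were poly(A)-selected and strand-specific. Per the submitters' processing notes, the authors used DESeq2, HTSeq and deepTools, the aligner STAR 2.7.10a, the trimmer cutadapt 3.7 and bcl2fastq 2.20, with build hg38; the sources used here give neither the annotation nor the settings. Per the file headers, the authors' table holds a mean normalised count (a signal that is never negative), a log2 fold change and its SE on the log2 scale, a Wald statistic (a score), a p-value and an adjusted p-value for each gene. Adjusted p-values equalled a Benjamini-Hochberg adjustment over the 13885 listed genes. The SE never exceeded 0.295, as happens when fold changes are shrunken under a normal prior; the deposited log2 values may then understate changes.

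Symbols, coordinates, lengths and GC content came from GENCODE 29 on GRCh38 (13877 of 13885 identifiers matched without version), main transcripts being ranked by APPRIS, basic tag, support level and length. Unshrunken values were estimated with a prior SD of 0.59, set as 2 times the largest SE. The trend was an ordinary linear fit over all annotated genes. Of the related lists, up to 4 genes with the smallest adjusted p and the most abundant gene were to be named; fewer or further genes are named in places. Members, lists and rules were chosen with earlier results of these data known. The steps were tested on simulated data. Computation used pandas 2.3.3, scipy 1.17.1 and numpy 2.4.6 under Python 3.11.15, and plots used matplotlib 3.10.9.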

Additional observations from a re-analysis of the deposited data

How the results depend on the processing

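Of 9 other call rules, 8 planned and 1 added after seeing the data, the count of readers higher in siPcif1 cells stayed at 5 in 3. It was 3 at an adjusted p under 0.01, with the Benjamini-Yekutieli adjustment and with the trend removed using genomic span, 2 with the trend removed using transcript length, and 0 both against an absolute log2 change of 0.3 and with rescaled Wald statistics. The count lower in siPcif1 cells was 0 under all 9, and no reader changed sign. PCIF1 itself did not pass with rescaled Wald statistics. YTHDF3 and YTHDC1 kept their call under 7 of the 9, YTHDC2 under 5, IGF2BP1 under 4 and IGF2BP3 under 3. Without shrinkage the estimated log2 fold changes were 0.83 for YTHDC1, 0.62 for YTHDF3, 0.64 for YTHDC2, 0.41 for IGF2BP1 and IGF2BP3, 0.37 for YTHDF2 and 0.10 for YTHDF1. Why the calls differ between rules was not tested, beyond what each rule does by construction. No paired analysis was possible because values per library were not analysed here; for the same reason no library was left out in turn. Depth per library is unknown.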
